A study of Rattus norvegicus with 9 samples.

Results

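The calcium/calmodulin-dependent protein kinase (CaM kinase) genes described here are 7 genes: Camk2a, Camk2b, Camk2d, Camk2g, Camk4, Camkk2 and Camk1. They were taken as all probe sets that the platform annotation pairs with these symbols alone, which gave 16 of the 20826 probe sets with a single gene name (7 of 14217 genes). A probe set is a group of short oligonucleotides on the array that reads 1 transcript or part of it. The genes were selected on their measured 1 h values, since several Camk2a probe sets were lower at 1 h than in control, so every 1 h difference of theirs from control is a description with no p, and counts of calls in that contrast support nothing. Of the 16 probe sets, 15 passed the filter on low signal. The other, Camk2g 1381936_at, had deposited signals of 2.84 to 30.1 over the 9 arrays and is given by these values only.

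The study measured rat hippocampal RNA, described in the labels as neuronal, on 9 arrays. Control samples had artificial cerebrospinal fluid only (3 arrays), and the treated samples had ketone bodies for 1 h (3 arrays) or 6 h (3 arrays). The labels give no ketone dose, strain, age or sex, and no exposure time for the control. They do not say that replicates came from separate animals or cultures, so each p measures only the spread between these arrays, which may be technical.

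CaM kinases carry calcium signals. Calcium that enters a neuron binds calmodulin, and calcium-loaded calmodulin then opens the autoinhibited kinase. CaMKII is a large assembly of the products of Camk2a, Camk2b, Camk2d and Camk2g. Its alpha and beta subunits dominate in forebrain neurons, are abundant at excitatory synapses and are needed for long-term potentiation in the hippocampus. Camkk2 encodes an upstream kinase that phosphorylates the products of Camk1 and Camk4 and also AMP-activated protein kinase, and the product of Camk4 is largely nuclear and phosphorylates the transcription factor CREB.

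After normalization, Camk2a and Camk2b were the genes with more than 1 probe set in which every probe set had 1 h values wholly below control. The bases upstream of their RefSeq starts are shown for that reason. For Camk2b 1398251_a_at this held by little (10.63 on ketone_1h replicate 2, 10.64 on control replicate 1), and its deposited signals overlapped (1601 and 1546 on those arrays). The sequences are the 250 bases before the start, 5′ to 3′ on the gene's strand, from the RefSeq promoter table for GRCr8. The Camk2a window is chr18:56648930-56649179 on the plus strand and the Camk2b window chr14:85147945-85148194 on the minus strand. Capitals mark the CRE half-site TGACG or its complement CGTCA, and the GC box GGGCGG or its complement CCGCCC.
Camk2a: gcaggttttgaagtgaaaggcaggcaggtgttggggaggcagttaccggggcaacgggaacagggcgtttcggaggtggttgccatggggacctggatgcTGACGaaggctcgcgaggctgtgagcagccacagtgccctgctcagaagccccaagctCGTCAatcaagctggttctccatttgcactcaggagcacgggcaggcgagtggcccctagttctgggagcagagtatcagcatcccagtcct
Camk2b: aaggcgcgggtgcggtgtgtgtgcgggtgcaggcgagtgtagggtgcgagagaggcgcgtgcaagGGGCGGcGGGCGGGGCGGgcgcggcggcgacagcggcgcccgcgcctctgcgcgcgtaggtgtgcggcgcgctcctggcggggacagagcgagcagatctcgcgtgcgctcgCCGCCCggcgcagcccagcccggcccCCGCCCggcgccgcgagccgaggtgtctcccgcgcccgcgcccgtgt
The Camk2a window held 2 CRE half-sites, whose first bases lie 150 and 92 bases before the start, and 0 GC boxes, at 60.4% G and C. The Camk2b window held 5 GC boxes, of which the pair 178 and 173 bases before the start overlap by a base, and 0 CRE half-sites, at 80.4% G and C. Of 33469 RefSeq windows of this length, 18.2% held a CRE half-site, 30.5% a GC box, 12.9% the TATA box TATAAA and 1.59% the full CRE TGACGTCA, each searched on both strands. The promoter table matched 6 of the 7 genes. Neither the full CRE nor TATAAA was found in those 6, GC boxes were also found upstream of Camk2d (3) and Camk2g (7), and a CRE half-site upstream of Camk1 (1). The array data do not measure binding to these letters.

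Differences below are on the scale of quantile-normalized log2(signal + 16), which understates the change of dim probe sets. Signals are the deposited linear intensities. They are not compared between probe sets, since each probe set has its own affinity. Whole-array correlations were 0.949 to 0.987 within a group and 0.945 to 0.988 between groups. One feature of single arrays touches several of the genes. For beta-actin, Gapdh and hexokinase the array carries control probe sets near both ends of the transcript, and their 3′/5′ log2 ratio rises when RNA is degraded or labelled copies are short. The hexokinase ratio was 1.58, 1.29 and 0.868 in control, 1.66, 1.69 and 2.42 at 1 h, and 3.18, 1.19 and 0.755 at 6 h. Replicate 1 at 6 h and replicate 3 at 1 h were thus highest. The beta-actin ratio was 1.37, 1.27 and 1.42 in control, 1.39, 2.16 and 2.02 at 1 h, and 2.58, 1.92 and 1.03 at 6 h. Replicate 1 at 6 h was highest in that ratio too, and in the Gapdh ratio with 0.459 against 0.021 to 0.243 elsewhere. By exact 2-sided permutation tests of 9 comparisons, the lowest p was 0.1 (hexokinase, 1 h against control, difference 0.68), adjusted 0.9. With 3 arrays against 3 the test cannot go below 0.1.

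**Figure D1:**
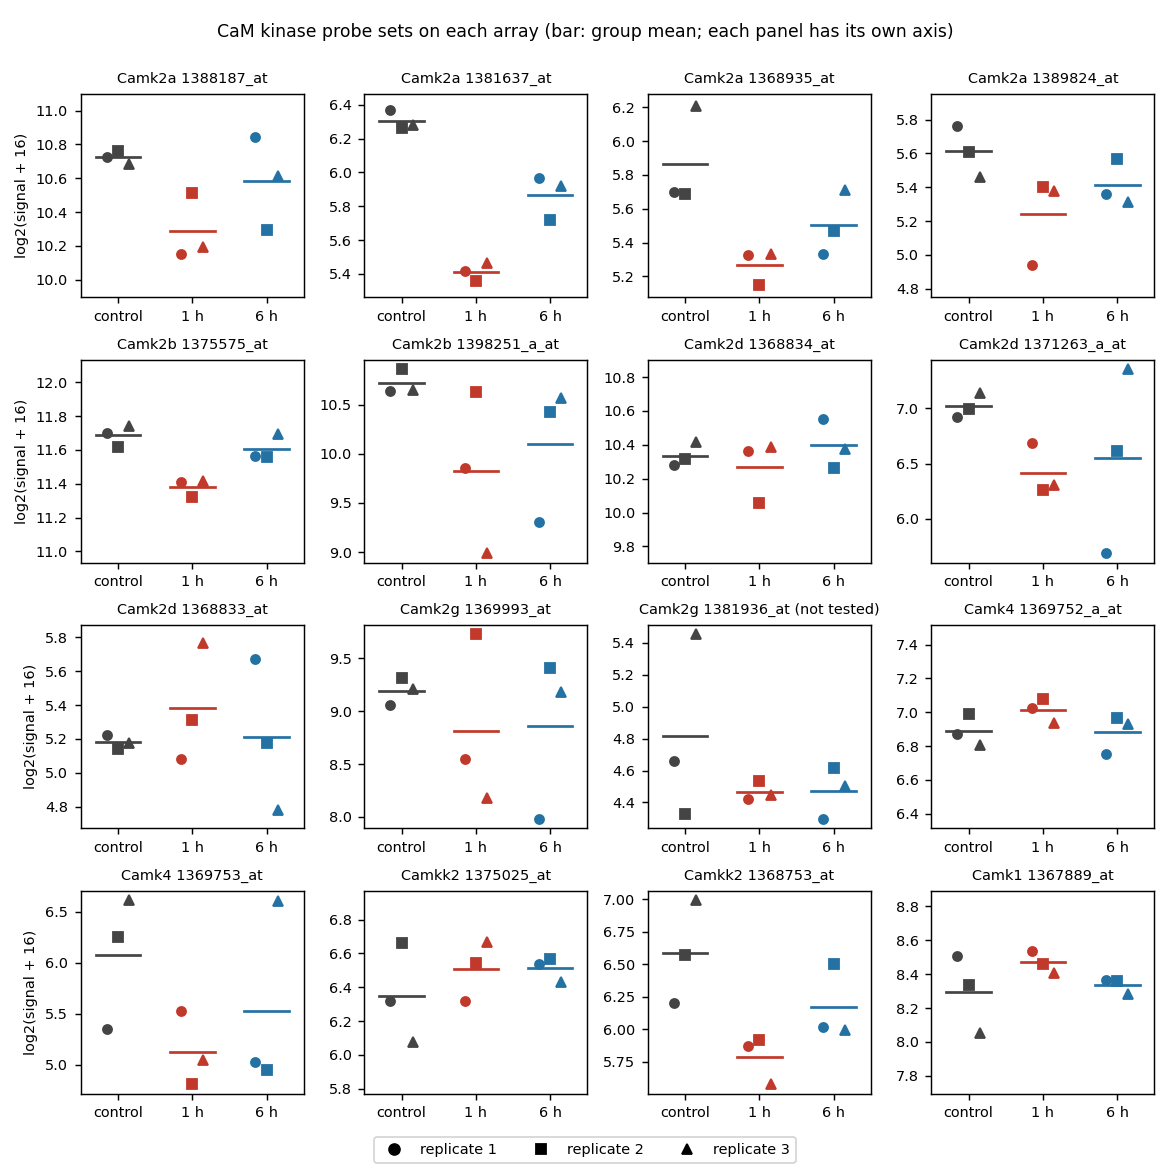
Quantile-normalized log2(signal + 16) of the 16 CaM kinase probe sets on each of the 9 arrays, in control, 1 h and 6 h; each panel is a probe set with its own vertical axis, symbols are replicate numbers and bars are group means. Camk2a 1381637_at separates all 3 groups, while Camk2b 1398251_a_at and Camk2g 1369993_at have single arrays far below the others of their group.

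Camk2a encodes the alpha subunit of CaMKII, and its messenger RNA is known to be carried into dendrites. All 4 Camk2a probe sets had lower values on every 1 h array than on any control array, by different extents. The clearest was 1381637_at, listed with an expressed sequence tag. Its signals were 68.6, 63.7 and 65.8 in control, 25.9, 23.5 and 27.3 at 1 h, and 41.8, 36.8 and 47.1 at 6 h. The groups did not overlap in any pair: 1 h was lowest and 6 h lay in between. The log2 difference from control was -0.89 ± 0.13 (SE, n = 3 arrays per group, as for every SE below) at 1 h and -0.44 ± 0.13 at 6 h, and 6 h stood above 1 h by 0.45 ± 0.13. The 6 h difference had an adjusted p of 0.904 by limma, and that between 6 h and 1 h an adjusted p of 0.996, so neither passed the threshold of 0.05. Their 95% intervals before adjustment, -0.72 to -0.16 and 0.17 to 0.73, did not include 0. The gene was selected on 1 h values against control. The first interval shares those control arrays and the second those 1 h arrays, so both are partly fixed by that choice. The signal is dim, so the size depends on the pseudocount.

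Camk2a 1388187_at, the brightest of the 4 on these arrays and also listed with an expressed sequence tag, had signals of 1637, 1668 and 1586 in control. At 1 h they were 1138, 1480 and 1175. At 6 h they were 1830, 1266 and 1504. The control arrays were tight, the 1 h arrays lay below all of them, and the 6 h arrays spread across both sides of the control range, with replicate 1 highest of all 9. The log2 differences were -0.44 ± 0.14 at 1 h and -0.14 ± 0.14 at 6 h (limma adjusted p = 0.987, 95% interval -0.45 to 0.16). Without ketone_6h replicate 2 the 6 h difference was 0.0029, and with array medians centred it was -0.03. The 1 h difference was -0.37 with the values as deposited and -0.27 with array medians centred.

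The remaining pair of Camk2a probe sets was dim. In 1368935_at, listed with the RefSeq messenger RNA, signals were 36.2, 38.2 and 62.3 in control, 23.4, 18.2 and 23.9 at 1 h, and 20.7, 28.8 and 38.8 at 6 h. The control value of replicate 3 stood well above the other two. Log2 differences were -0.59 ± 0.18 at 1 h and -0.36 ± 0.18 at 6 h (limma adjusted p = 0.987). In 1389824_at signals were 38.7, 35.2 and 30.4 in control, 13.9, 24.7 and 25.0 at 1 h, and 21.3, 31.9 and 25.6 at 6 h. Here control and 6 h overlapped, and replicate 1 was the lowest array at 1 h. The log2 differences were -0.37 ± 0.17 and -0.20 ± 0.17 (limma adjusted p = 0.987 at 6 h), and without ketone_1h replicate 1 the 1 h value was -0.22. In all 4 probe sets the order of the group means was control, then 6 h, then 1 h. The gene was selected for 1 h values below control, so this order is partly fixed by that choice. In all but 1381637_at the 95% intervals of the 6 h mean against both neighbours included 0. On the scale used, the 1 h differences ran from -0.37 (1389824_at) to -0.89 (1381637_at), but the pseudocount sets the order of the dim probe sets against the bright one. With a pseudocount of 1 the values were -0.44 for 1388187_at, -0.59 for 1389824_at, -0.87 for 1368935_at and -1.22 for 1381637_at, and with 64 they were -0.42, -0.17, -0.30 and -0.49.

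The 6 pairs of Camk2a probe sets correlated at Pearson's r of 0.36 to 0.79 over the 9 arrays. That includes the 1 h difference by which the gene was chosen and is given as a description. Within groups, where each array's deviation from its group mean was used, r ran from -0.50 to 0.49, and the lowest exact permutation p of the 6 pairs was 0.148.

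**Figure D2:**
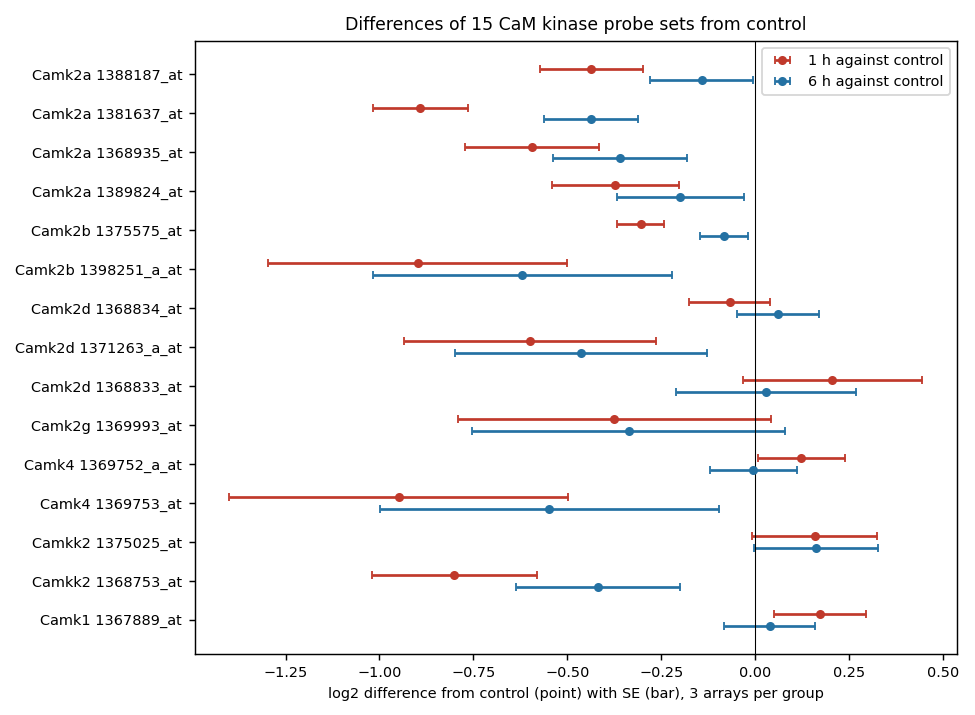
Log2 differences from control at 1 h (red) and 6 h (blue) for the 15 tested CaM kinase probe sets; points are the differences, bars their SE from the fit over all probe sets, with 3 arrays per group. The 4 Camk2a probe sets lie left of 0 at both times, from -0.37 to -0.89 at 1 h and from -0.14 to -0.44 at 6 h, while Camk4 and Camkk2 each have a probe set on either side of 0 at 1 h.

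Camk2b encodes the beta subunit, which binds actin in dendritic spines. Its brightest probe set, 1375575_at, had signals of 3136, 2992 and 3233 in control, 2749, 2627 and 2975 at 1 h, and 3002, 3147 and 3136 at 6 h. On the normalized scale the 1 h arrays lay below every control and every 6 h array, and control and 6 h overlapped. The log2 differences were -0.31 ± 0.06 at 1 h, -0.08 ± 0.06 at 6 h (limma adjusted p = 0.987) and 0.22 ± 0.06 for 6 h above 1 h (adjusted p = 0.996, 95% interval before adjustment 0.08 to 0.36, against 1 h values used in the selection). The scaling sets much of this small difference: at 1 h it was -0.17 with the values as deposited and -0.06 with array medians centred, and at 6 h it was 0.066 with centring.

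The other Camk2b probe set, 1398251_a_at, listed with the RefSeq messenger RNA, spread far more. Signals were 1546, 1784 and 1551 in control, 917, 1601 and 495 at 1 h, and 625, 1392 and 1468 at 6 h. A single array at each time was very low: replicate 3 at 1 h and replicate 1 at 6 h, the arrays with the highest hexokinase ratios. The normalized values were nevertheless below control on all treated arrays, with log2 differences of -0.90 ± 0.40 at 1 h and -0.62 ± 0.40 at 6 h (limma adjusted p = 0.987). Without both of those arrays they were -0.48 and -0.22, and with the hexokinase ratio as a covariate -0.49 and -0.34. Those 2 settings were added after the data were seen.

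Camk2d, whose delta subunit is widely expressed and prominent in heart, had 3 probe sets that did not move alike. In 1368834_at signals were 1215, 1223 and 1301 in control, 1316, 1071 and 1354 at 1 h, and 1503, 1233 and 1293 at 6 h. All groups overlapped, with log2 differences of -0.07 ± 0.11 at 1 h (0.10 with array medians centred) and 0.06 ± 0.11 at 6 h (limma adjusted p = 0.99, 95% interval -0.18 to 0.30). In 1371263_a_at, listed with a GenBank messenger RNA, signals were 107, 116 and 129 in control, 85.7, 58.4 and 58.8 at 1 h, and 31.4, 81.2 and 151 at 6 h. The 6 h arrays covered both the lowest and the highest value of all 9, in the reverse order of their 3′/5′ ratios. The log2 differences were -0.60 ± 0.33 and -0.46 ± 0.33 (6 h: adjusted p = 0.987). In 1368833_at, listed with the RefSeq messenger RNA and near the filter's level, signals were 21.0, 21.3 and 22.0 in control, 17.2, 22.2 and 36.2 at 1 h, and 30.9, 20.9 and 12.4 at 6 h. Here the order of the 6 h arrays was the opposite of that in 1371263_a_at, and the log2 differences were 0.21 ± 0.24 and 0.03 ± 0.24 (6 h: adjusted p = 0.994).

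Camk2g encodes the gamma subunit, known for carrying calmodulin towards the nucleus. Its tested probe set, 1369993_at, had signals of 517, 612 and 572 in control, 357, 845 and 270 at 1 h, and 238, 662 and 558 at 6 h. Control lay inside the range of both treated groups, and the low arrays were again replicate 3 at 1 h and replicate 1 at 6 h, joined by replicate 1 at 1 h. The log2 differences were -0.38 ± 0.42 and -0.34 ± 0.42 (6 h: limma adjusted p = 0.987, 95% interval -1.26 to 0.59). Without both arrays of highest hexokinase ratio they were -0.06 and 0.10, and with that ratio as a covariate 0.03 and -0.06.

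Camk4 had a pair of probe sets that disagreed. In 1369752_a_at signals were 103, 116 and 99.7 in control, 112, 116 and 102 at 1 h, and 87.9, 108 and 109 at 6 h, with every pair of groups overlapping. Log2 differences were 0.12 ± 0.12 and -0.01 ± 0.12 (6 h: limma adjusted p = 0.998, 95% interval -0.26 to 0.25). In 1369753_at signals were 24.6, 63.0 and 86.4 in control, 29.3, 11.1 and 17.3 at 1 h, and 13.6, 15.9 and 84.7 at 6 h. The groups overlapped here too, since replicate 1 of control was low and replicate 3 at 6 h close to the highest control. Log2 differences were -0.95 ± 0.45 and -0.55 ± 0.45 (6 h: adjusted p = 0.987). With the beta-actin ratio as a covariate they were -0.44 and -0.05.

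Camkk2, the upstream kinase, also had a pair that disagreed. In 1368753_at, listed with the RefSeq messenger RNA, signals were 59.2, 82.6 and 116 in control, 41.9, 42.3 and 30.3 at 1 h, and 43.8, 73.5 and 50.3 at 6 h. The 1 h arrays lay below all control and all 6 h arrays, while control and 6 h overlapped. Log2 differences were -0.80 ± 0.22 at 1 h and -0.42 ± 0.22 at 6 h (limma adjusted p = 0.987, 95% interval -0.91 to 0.07), and the 1 h value was -0.82 with the beta-actin ratio as a covariate and -0.69 with the hexokinase ratio. In 1375025_at signals were 65.7, 88.8 and 55.9 in control, 63.3, 74.6 and 81.6 at 1 h, and 72.5, 78.1 and 73.8 at 6 h. All groups overlapped, with log2 differences of 0.16 ± 0.17 at both times (6 h: adjusted p = 0.987). For Camk1, which encodes a cytosolic kinase that Camkk2 activates, 1367889_at had 350, 309 and 251 in control, 356, 337 and 322 at 1 h, and 319, 309 and 293 at 6 h. The control arrays spread more than both treated groups together, and log2 differences were 0.17 ± 0.12 and 0.04 ± 0.12 (6 h: adjusted p = 0.991).

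Counted over the family, 11 of 15 tested probe sets had negative log2 differences at 1 h (44.7% of all 18625 tested probe sets did), 8 had 1 h arrays wholly below control (background 8.26%), 0 wholly above (background 13%) and 0 passed an adjusted p of 0.05 by limma (background 0.0322%), beside 6 at unadjusted p under 0.05 (background 11.4%). These 1 h counts use the contrast that chose the genes, so they are a description and test nothing. At 6 h, which shares the control arrays, 11 of 15 were negative (background 46.2%) and 2, Camk2a 1381637_at and Camk2b 1398251_a_at, lay wholly below control (background 3.15%), with 0 wholly above (background 6.05%). By limma 0 of 15 passed at 6 h (background 0.0268%), beside 1 at unadjusted p under 0.05 (background 4.25%). The median log2 difference of the 15 was -0.38 at 1 h and -0.20 at 6 h, against 0.03 and 0.01 over all tested probe sets. For 6 h against 1 h, which shares the 1 h arrays on which the genes were selected, 3 of 15 were negative (background 53%) and 0 of 15 passed by limma (background 0%), with 2 at unadjusted p under 0.05 (background 2.72%), namely Camk2a 1381637_at and Camk2b 1375575_at. In that comparison 4 probe sets had 6 h wholly above 1 h (background 3.55%) and Camk1 lay wholly below (background 4.04%). Probe sets of a gene share their transcript, so these counts are not counts of independent genes.

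Probe sets of the same gene on the same array share the RNA sample, so their difference on that array shows where they part. For Camk2b, 1398251_a_at minus 1375575_at was -1.06, -0.75 and -1.09 in control, -1.56, -0.70 and -2.43 at 1 h, and -2.26, -1.13 and -1.12 at 6 h. The pair thus parted by over 2 on the log2 scale only on replicate 3 at 1 h and replicate 1 at 6 h. For Camk2d, 1371263_a_at minus 1368834_at was -3.36, -3.32 and -3.28 in control, -3.68, -3.79 and -4.08 at 1 h, and -4.87, -3.65 and -3.02 at 6 h. The control arrays lay close together, all 1 h arrays lay below them, and the 6 h arrays lay on both sides. This Camk2d difference correlated with the hexokinase ratio over the 9 arrays at r = -0.95 (rho -0.95, exact permutation p = 0.000237 and 0.000353, adjusted 0.00142 and 0.00423 over the 12 pairs). Without the 2 arrays farthest from the median ratio r was -0.78, and within groups it was -0.96 (exact permutation p = 0.00463, the smallest that permuting within groups can give, adjusted 0.0278). That adjusted value passes only through a tie. The Camk2d pair of 1371263_a_at and 1368833_at, which shares a probe set with this pair, had the same p. For the Camk2b difference the corresponding r was -0.78 (rho -0.37, adjusted p = 0.0749 and 0.404 by exact permutation) and 0.03 without the 2 farthest arrays, so it rested on those arrays. The comparison of pairs was added after the data were seen.

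**Figure D3:**
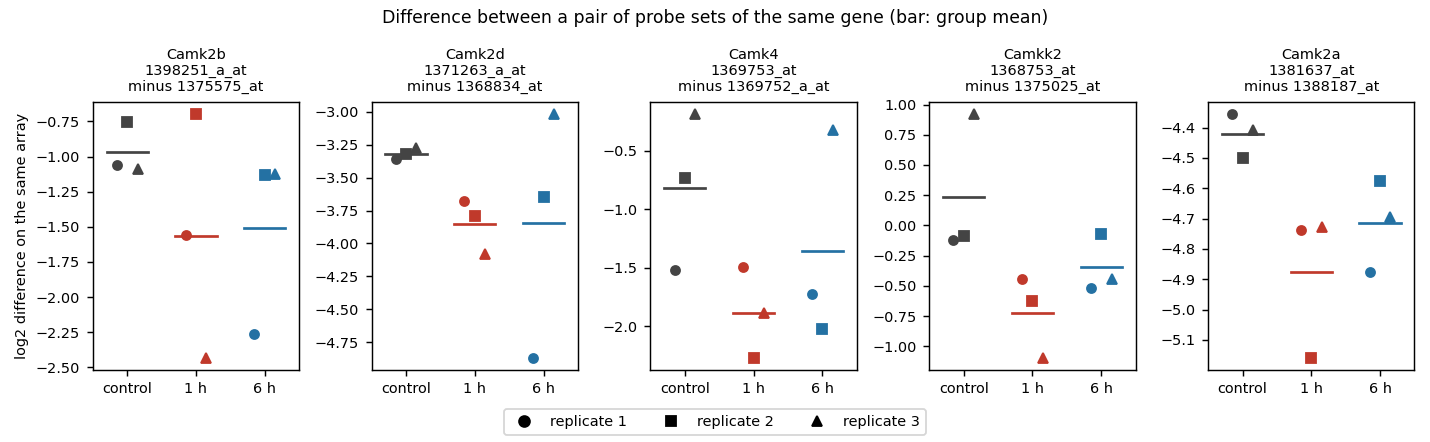
Log2 difference between a pair of probe sets of the same gene on each array, in control, 1 h and 6 h; symbols are replicate numbers, bars group means, and each panel has its own axis. In the Camk2d panel control arrays sit between -3.36 and -3.28 and replicate 1 at 6 h lies at -4.87; in the Camk2a panel all treated arrays lie below all controls.

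The relation of each probe set to RNA quality was tested over the 9 arrays with the beta-actin ratio. Of 15 probe sets, 2 passed an adjusted p of 0.05 by exact permutation, both from Camk2d and with opposite signs. Camk2d 1371263_a_at had r = -0.96 (rho -0.90, exact p = 7.72e-05 and 0.00203, adjusted 0.00116 and 0.0304). It kept r = -0.89 without the 2 arrays farthest from the median ratio and -0.95 within groups, where the exact permutation p was 0.037 (adjusted 0.463). Camk2d 1368833_at had r = 0.82 (rho 0.80, exact p = 0.00473 and 0.0138, adjusted 0.0355 and 0.104), 0.81 without the 2 farthest arrays and 0.87 within groups (exact p = 0.0926, adjusted 0.463). It is a dim probe set near the filter's level, and its adjusted p no longer passed 0.05 when control replicate 1, 2 or 3, ketone_1h replicate 1, or ketone_6h replicate 1 or 3 was left out. With the Gapdh ratio, whose range is small, 0 of 15 passed by exact permutation of Pearson's r (lowest adjusted p = 0.166), and no probe set passed within groups for any of the 3 ratios. Permuting within groups cannot give a p under 0.00463, too large for a single probe set to pass after adjustment over 15, so that count says nothing about the relation.

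None of the 4 Camk2a probe sets passed in that test. Camk2a 1388187_at had r = -0.04 (rho -0.07, exact permutation p = 0.922 and 0.88, adjusted 0.937 and 0.88), but -0.65 without the 2 arrays farthest from the median ratio and 0.42 within groups, so its value rested on those arrays. Camk2a 1381637_at had r = -0.41 (rho -0.40, exact p = 0.27 and 0.291, adjusted 0.489 and 0.624), -0.51 without the 2 farthest arrays and 0.05 within groups. Camk2a 1368935_at had r = -0.61 (rho -0.60, exact p = 0.076 and 0.0968, adjusted 0.279 and 0.363), -0.45 without the 2 farthest and -0.48 within groups. Camk2a 1389824_at had r = -0.03 (rho -0.15, exact p = 0.937 and 0.708, adjusted 0.937 and 0.858), 0.09 without the 2 farthest and 0.44 within groups. The pooled values include the 1 h difference that chose the gene. The other 9 probe sets had r between -0.79 (Camk4 1369753_at, exact p = 0.0137, adjusted 0.0687) and 0.42 (Camkk2 1375025_at).

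Replicate 1 at 1 h had a beta-actin ratio of 1.39, inside the control range of 1.27 to 1.42, and a hexokinase ratio of 1.66, above the control range of 0.868 to 1.58. Its signals of 25.9 in 1381637_at and 23.4 in 1368935_at lay between those of the other 1 h arrays. In 1388187_at (1138) and 1389824_at (13.9) it was the lowest 1 h array. The hexokinase ratio was above every control on all 1 h arrays. With a ratio in the fit the 1 h difference of 1381637_at was -0.90 (beta-actin) or -0.93 (hexokinase), that of 1388187_at -0.52 or -0.51, that of 1389824_at -0.45 or -0.40, and that of 1368935_at -0.49 with either. The last of these was nearer to 0 than without a ratio (-0.59). Among the other genes, Camk2d 1371263_a_at went from -0.60 to -0.13 or -0.22, Camk2b 1398251_a_at from -0.90 to -0.62 or -0.49, Camk2g 1369993_at from -0.38 to -0.19 or 0.03, and Camk4 1369753_at from -0.95 to -0.44 or -0.61. Camk2d 1368833_at changed sign, from 0.21 to -0.07 or -0.04. These are the 1 h values on which the genes were selected, and the part of RNA quality in them was not tested.

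**Figure D4:**
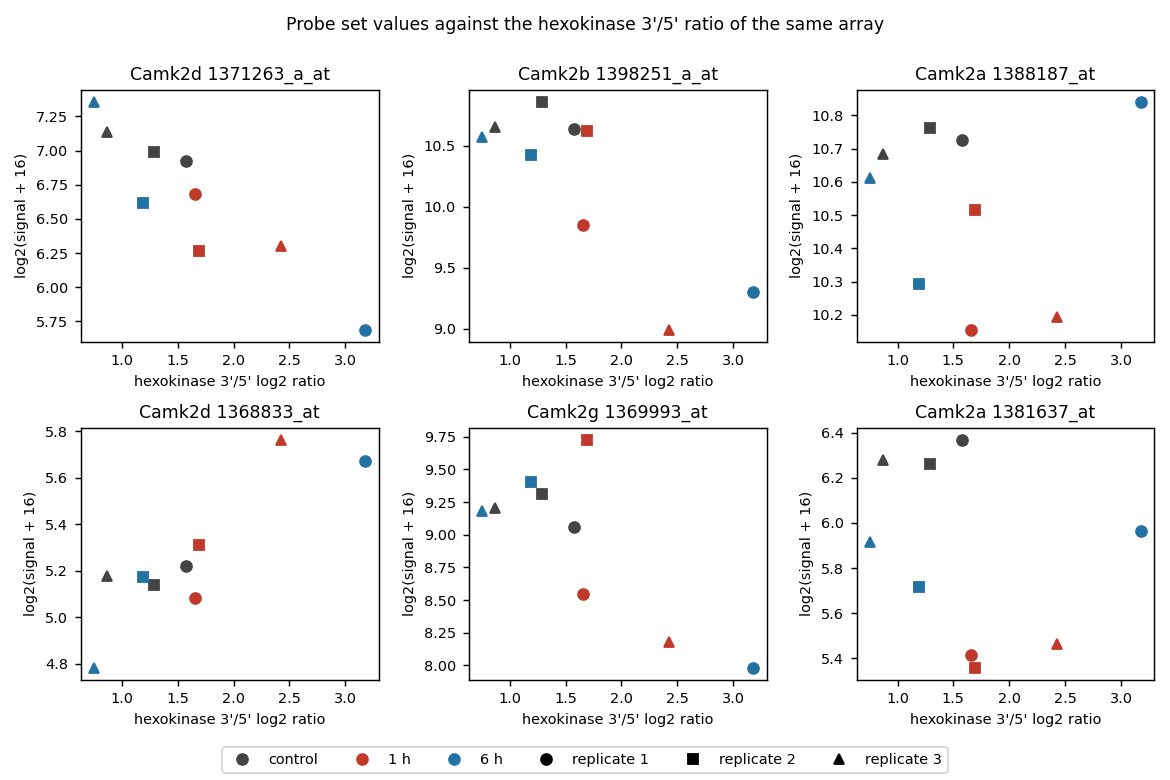
Normalized log2(signal + 16) of 6 CaM kinase probe sets against the hexokinase 3′/5′ log2 ratio of the same array; colours are groups and symbols replicate numbers. Camk2d 1371263_a_at descends and Camk2d 1368833_at ascends along the axis, and Camk2b and Camk2g have their lowest values on the arrays at 2.42 and 3.18. Camk2a 1381637_at sorts by group, and all 1 h arrays lie at higher ratios than all controls.

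With hexokinase as the measure, which was chosen after the data were seen, the same pair of Camk2d probe sets passed (r = -0.92 and 0.87, adjusted p = 0.00847 and 0.028 by exact permutation; rho -0.88 and 0.75, adjusted p = 0.0461 and 0.127). Camk2b 1398251_a_at had r = -0.81 (rho -0.58, adjusted p = 0.0538 and 0.226) and Camk2g 1369993_at r = -0.78 (rho -0.50, adjusted p = 0.0538 and 0.296). Without the 2 arrays farthest from the median ratio the Camk2d values were -0.79 and 0.64, and those of Camk2b and Camk2g became -0.33 and -0.10, so the last pair rested on those arrays.

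**Figure D5:**
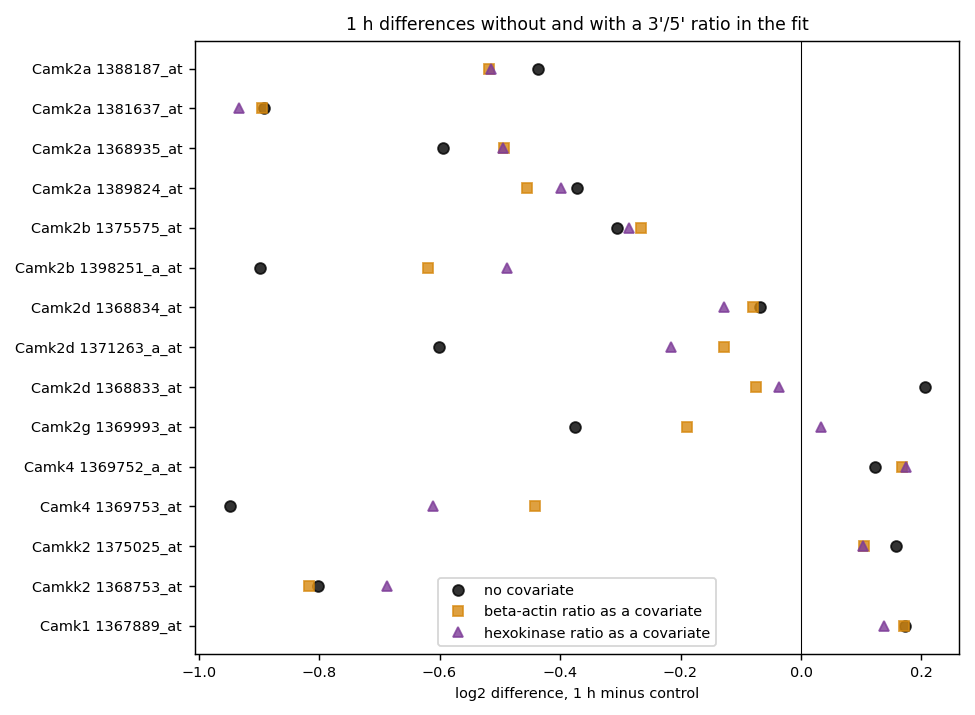
Log2 difference of 1 h from control for each of the 15 tested CaM kinase probe sets without a covariate (circles), with the beta-actin 3′/5′ ratio in the fit (squares) and with the hexokinase ratio (triangles). The Camk2a symbols stay between -0.37 and -0.93 in all 3 fits, whereas Camk2d 1371263_a_at goes from -0.60 to -0.13 and -0.22.

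Among lists of the pathway, 0 genes passed an adjusted p of 0.05 in any comparison by limma. Each gene is represented by its brightest tested probe set. Over all 10707 genes 36.5% had negative differences at 1 h and 38.7% at 6 h, and over all tested probe sets 11.4% and 4.25% had an unadjusted p under 0.05, which is the background for every list count here. Nothing particular to a list is read from its counts. Of 7 calmodulin and calmodulin-binding genes tested, 5 had negative differences at 1 h and 5 at 6 h (median -0.07 and -0.01, against 0.07 and 0.04 over all genes; 1 and 0 at unadjusted p under 0.05). Marcks, a membrane protein that binds calmodulin and actin, had -0.30 ± 0.11 at 1 h (adjusted p = 0.392), and the neuronal calmodulin buffer Nrgn had -0.09 ± 0.07 at 6 h (adjusted p = 0.987). The calcium buffer Calb1 had 0.14 ± 0.08 at 1 h and -0.01 ± 0.08 at 6 h, and Calb2 had 0.05 ± 0.14 and 0.16 ± 0.14 (adjusted p = 0.526, 0.993, 0.906 and 0.987). Of 13 inhibitors and phosphatases, 7 were negative at each time (median -0.03 and -0.01; 1 and 0 at unadjusted p under 0.05). The calcineurin subunits Ppp3ca and Ppp3cb, which counteract CaM kinases on many substrates, had -0.25 ± 0.12 and -0.19 ± 0.08 at 1 h (adjusted p = 0.452 and 0.437) and -0.25 ± 0.12 and -0.14 ± 0.08 at 6 h (adjusted p = 0.987 for both). Of 13 related kinases, 5 were negative at 1 h and 6 at 6 h (median 0.07 and 0.01; 1 and 0 at unadjusted p under 0.05). In that list the elongation factor kinase Eef2k had -0.68 ± 0.30 (adjusted p = 0.437) and the doublecortin-like kinase Dclk1 had -0.13 ± 0.07 (adjusted p = 0.494) at 1 h, whereas Dapk2 and the phosphorylase kinase subunit Phkg2 had 0.28 ± 0.23 and 0.11 ± 0.10 at 6 h (adjusted p = 0.987 for both).

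Genes of calcium entry and anchoring had 8 of 12 negative differences at 1 h and 9 at 6 h (median -0.17 and -0.05; 2 and 2 at unadjusted p under 0.05). The calcium release channel Ryr2 had -0.26 ± 0.08 at 1 h and -0.22 ± 0.08 at 6 h (limma adjusted p = 0.351 and 0.987), with every treated array below every control. The NMDA receptor subunit Grin2b, which anchors CaMKII at the synapse, had -0.79 ± 0.33 at 1 h (adjusted p = 0.419), with its lowest values on ketone_6h replicate 1 (5.59) and ketone_1h replicate 3 (5.65), the arrays of highest hexokinase ratio, and the IP3 receptor Itpr1 had -0.18 ± 0.07 at 6 h (adjusted p = 0.987). Of 14 substrates tested, 10 were negative at 1 h and 11 at 6 h (median -0.06 and -0.05; 1 and 0 at unadjusted p under 0.05). CREB itself (Creb1) had -0.60 ± 0.18 and -0.36 ± 0.18 (adjusted p = 0.335 and 0.987), and the AMPA receptor subunit Gria1 had -0.37 ± 0.20 and -0.28 ± 0.20 (adjusted p = 0.493 and 0.987). Gria1 was also lowest on ketone_1h replicate 3 (7.63) and ketone_6h replicate 1 (7.73), and the part of RNA quality in these differences was not tested. The Creb1 values were 6.35, 6.65 and 6.65 on the log2 scale in control, 5.83, 6.32 and 5.68 at 1 h, and 6.09, 6.19 and 6.27 at 6 h. All treated arrays therefore lay below control, though replicate 2 at 1 h (6.32) was close to replicate 1 of control (6.35). Of all tested probe sets 8.26% lay wholly below control at 1 h and 3.15% at 6 h, which is the background for Ryr2 and Creb1 alike. The share for both times together was not computed.

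Of 12 CREB-responsive genes, 8 had negative differences at 1 h and 3 at 6 h (median -0.03 and 0.02; 2 and 3 at unadjusted p under 0.05). Fosb, an AP-1 subunit, had 0.78 ± 0.17 at 6 h (limma adjusted p = 0.43) and the nuclear receptor Nr4a1 0.42 ± 0.11 at 1 h and 0.50 ± 0.11 at 6 h (adjusted p = 0.321 and 0.449). The phosphatase Dusp1 had -0.27 ± 0.09 at 1 h and -0.36 ± 0.09 at 6 h (adjusted p = 0.355 and 0.491). Of 10 messenger RNAs known from dendrites, 7 were negative at 1 h and 6 at 6 h (median -0.08 and -0.02; 2 and 0 at unadjusted p under 0.05). The scaffold Homer1 had -0.37 ± 0.13 and -0.25 ± 0.13 (adjusted p = 0.386 and 0.987), and Map2, a dendritic microtubule protein, -0.30 ± 0.13 at 1 h (adjusted p = 0.419). The synaptic scaffold gene Dlg4 had 0.20 ± 0.12 at 6 h (adjusted p = 0.987). For 6 h against 1 h, the named genes of the lists included Marcks with 0.31 ± 0.11, Fosb with 0.45 ± 0.17, Creb1 with 0.24 ± 0.18 and Arc, an activity-regulated synaptic gene, with -0.22 ± 0.13 (adjusted p = 0.996 for each).

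Cell type markers were read beside these values, because in bulk RNA fewer cells of a type and less RNA per cell cannot be told apart. Markers of glia passed the filter on low signal beside those of neurons: all 8 astrocyte, 8 oligodendrocyte and 9 general neuronal markers on the array did, as did 8 of 10 for microglia and macrophages. The summed signal of 8 excitatory neuron markers ranged from 6140 to 7151 in control, 6442 to 6624 at 1 h and 5832 to 6307 at 6 h, overlapping between control and each time. On the log2 scale 6 of these 8 were negative at 1 h and 6 at 6 h (median -0.18 and -0.14), among them the transcription factor Tbr1 with -1.35 ± 0.47 and -1.29 ± 0.47 (limma adjusted p = 0.381 and 0.987). The summed signal of the 9 general neuronal markers was 20568 to 20604 in control and higher on all 1 h arrays (20883 to 23014). Yet 7 of the 9 had negative log2 differences at 1 h (median -0.06). All sums here use the deposited signals, whereas the log2 differences use the quantile-normalized values, so these measures are on different scales. The sum of 8 inhibitory neuron markers was 8636 to 8833 in control, 10079 to 10726 at 1 h and 9242 to 9850 at 6 h. On the log2 scale 6 were positive and 2 negative at 1 h, and 7 and 1 at 6 h (median 0.18 and 0.06). Gad1 (-0.09) and Gad2 were the negative ones at 1 h. Gad2 was at most 5.98 at 1 h and at least 6.53 in control. The endothelial sum was also above control on every 1 h array (820 to 829 against 733 to 814). Astrocyte and oligodendrocyte sums extended higher at 1 h but overlapped control, and the choroid plexus sum extended lower (4039 against 4588). The sum of 10 microglial and macrophage markers was 1058 to 1240 in control, 1317 to 1403 at 1 h and 1196 to 1299 at 6 h. Of the 8 tested, 6 were positive and 2 negative at each time (median 0.27 and 0.11). The part of these shifts in the Camk2a differences was not tested.

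The tested single-gene probe sets most like Camk2a 1388187_at over the 9 arrays, out of 14446, were those of Tbc1d4 (r = 0.97), Fam117a (0.95), Clasp1 (0.93), Cdc23 (0.91) and Lyst (0.91). For the brightest probe set of each other member the most like were Maf for Camk2b (0.97), Smarca5 for Camk2d (0.97), Entpd5 for Camk2g (0.99), Hmox2 for Camk4 (0.97), Wdr91 for Camkk2 (0.96) and Rpl11 for Camk1 (0.96). With 9 arrays and so many candidates, values of this size describe these arrays only, and arrays share their normalization. Other CaM kinase members were not among the 5 named for Camk2a.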

How the data were processed

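RNA from 9 rat hippocampal samples was measured on expression arrays with 31099 probe sets. The authors deposited linear signal intensity values per probe set. Their 2% trimmed mean was about 150.05 on every array, per the values, and the software that made them is not given in the sources used here. The 57 control probe sets were left out. The log2(intensity + 16) values computed from the deposited intensities were quantile-normalized, because the array medians spanned 0.206 (log2), above the limit of 0.2 set for leaving them as they were. Probe sets with a mean above the 40th percentile (log2 5.21, a signal of 21.0) were kept, 18625 in all. They were fitted by limma (version 3.58.1, R version 4.3.3) over all 9 arrays, each group with its own mean, with an intensity trend and 6 residual degrees of freedom. Adjusted p values are Benjamini-Hochberg over all tested probe sets, with a threshold of 0.05. Samples were grouped by their labels, 3 arrays each. The number of arrays limits the precision.

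The ratios of 3′ to 5′ control probe sets used the deposited signals. Correlations and ratios were tested by exact 2-sided permutation in python 3.11.15 with numpy 2.4.6, and figures were drawn with matplotlib 3.10.9. The fit and the correlations were tested on simulated data.

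Gene names are those of the platform annotation: 20826 probe sets have 1 symbol, 436 several and 9780 none. All probe sets of the 7 genes are named. From each pathway list the up to 4 genes passing the threshold, or otherwise the 2 of smallest p, were named for 1 h and 6 h against control; for 6 h against 1 h only some of them are given. Likeness names the 5 probe sets of highest r for Camk2a and 1 of the 3 for each other gene. The members and lists were chosen with earlier results of these data known. Alternatives covered the scaling, pseudocount, filter, variance model, array weights, replicate block, ratio covariates and each array left out. Positions on the array's transcripts were not used here.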

Additional observations from a re-analysis of the deposited data

How the results depend on the processing

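Of the alternative values of the members' differences and correlations, 1071 were classed as unchanged, 52 as reversed, 11 as moved and 9 as weaker. For the 6 h comparisons and the correlations, unchanged meant the same direction and call. For 1 h against control it meant a shift smaller than the SD within groups, whatever the sign. Some of those 1 h values therefore changed sign, such as Camk2d 1368833_at from 0.21 to -0.07 with the beta-actin ratio in the fit. In the 1 h contrast, which chose the members and so tests nothing about them, limma called 0 of them, against 1 with the values as deposited, 1 without an intensity trend and 1 with array weights. At 6 h and for 6 h against 1 h, 0 passed under any alternative run. The number of probe sets related to the beta-actin ratio was 2, against 1 with the values as deposited, 0 with the Gapdh ratio, and 1 to 2 with each array left out. Where 1 remained, the one lost was Camk2d 1368833_at. With the Gapdh ratio Camk2d 1371263_a_at did not pass either (r = -0.65, adjusted p = 0.431 by exact permutation). Over the whole array the calls at 1 h were 4 higher and 2 lower, against 5 and 4 as deposited and 6 and 3 with medians centred. The total of 6 became 25 (15 higher) with array weights, 3 without a filter, 2 with the replicate block, 0 with the beta-actin ratio or without both arrays of highest hexokinase ratio, and 0 to 10 with each array left out. It was 0 without control replicate 1, 2 or 3 or ketone_1h replicate 1 or 3, 3 without ketone_1h replicate 2, 2 without ketone_6h replicate 3 and 10 without ketone_6h replicate 1. The 5 calls at 6 h became 2 as deposited or without a filter, and 1 with medians centred, the replicate block, the beta-actin ratio, only the compared groups or any array left out. The beta-actin ratio for 6 h against 1 h was 0.029 with quantile-normalized control probe sets, against -0.012.

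At 6 h against control these differences changed sign. Camk2d 1368833_at was -0.032 as deposited, -0.0050 with pseudocount 1, -0.11 with array weights, -0.24 with the beta-actin ratio and -0.14 with the hexokinase ratio in the fit. Camk4 1369752_a_at was 0.017 with medians centred, 0.029 with array weights, 0.038 and 0.030 with those ratios, and 0.059 without both arrays of highest hexokinase ratio. Camk2b 1375575_at was 0.066 with medians centred and Camk1 1367889_at -0.038 with array weights. Without both arrays Camk2g 1369993_at was 0.10 and Camk2d 1368834_at -0.017, and Camk2d 1368833_at was below the filter. For 6 h against 1 h Camk2g 1369993_at was -0.093 with the hexokinase ratio. The correlation changed sign with the Gapdh ratio for Camk2a 1381637_at (0.17) and 1388187_at (0.46), Camkk2 1368753_at (0.041) and 1375025_at (-0.16), Camk2b 1375575_at (0.083) and Camk1 1367889_at (-0.23). For Camk2a 1388187_at it was 0.018 with hexokinase and 0.065 as deposited. The causes were not tested.

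With each array left out in turn, ranges that crossed 0 at 6 h were -0.048 to 0.059 for Camk4 1369752_a_at, -0.085 to 0.14 for Camk1 1367889_at, -0.017 to 0.13 for Camk2d 1368834_at, -0.61 to 0.10 for Camk2g 1369993_at and -0.27 to 0.0029 for Camk2a 1388187_at. For 6 h against 1 h they were -0.28 to 0.49 for Camk2g 1369993_at, -0.093 to 0.083 for Camkk2 1375025_at, -0.14 to 0.68 for Camk2b 1398251_a_at, -0.33 to 0.038 for Camk2d 1368833_at, -0.14 to 0.69 for Camk4 1369753_at and -0.27 to 0.57 for Camk2d 1371263_a_at. Correlations ranged from -0.50 to 0.10 for Camk2a 1388187_at, -0.33 to 0.12 for Camk2a 1389824_at, -0.58 to 0.55 for Camk2d 1368834_at, -0.69 to 0.035 for Camk2g 1369993_at and -0.47 to 0.40 for Camk4 1369752_a_at. The beta-actin ratio for 6 h against 1 h ranged from -0.38 to 0.40. The Gapdh ratio ranged from -0.080 to 0.031 (1 h), -0.076 to 0.13 (6 h) and -0.052 to 0.16 (6 h against 1 h), and the hexokinase ratio from -0.27 to 0.94 (6 h) and -0.95 to 0.26 (6 h against 1 h).

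Deviations from group means correlated between groups at -0.36 to 0.54 for the same replicate number (mean 0.06). For other numbers they correlated at -0.43 to 0.53 (mean -0.03), and 4 of 9 arrays correlated best with their own number. With so few arrays and overlapping ranges, these values cannot decide whether replicate numbers pair the arrays. With a replicate block 0 members passed in each comparison, and over the whole array 2 calls at 1 h and 1 at 6 h were made, against 6 and 5. The settings with the hexokinase ratio or without both arrays, and the pairs of probe sets, were chosen after seeing the data.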
